A study of Mus musculus with 18 samples.

Results

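Genic regions that carried an H3K27me3 peak mostly in embryos of the 129 background are described here. H3K27me3, trimethylation of lysine 27 of histone H3, was profiled by CUT&Tag, in which an antibody tethers a transposase that cuts and tags the DNA around the mark, in single headfolds (the future head) of mouse embryos at embryonic day 8.5. Every embryo was Gulo-/-, lacking the gene for the last enzyme of vitamin C synthesis, so that vitamin C came from the dam. The groups were 129 or B6 embryos of dams given vitamin C at 3.3 g/l in drinking water or given none, with 3 embryos per group, 2 female and 1 male. These 12 peak lists were used. The series' 4 IgG samples and 2 further B6 samples were not analysed here, and B6 replicates keep the numbers 1, 2 and 4. All 3 B6 embryos with vitamin C came from the same timed pregnancy, so in B6 that pregnancy and the diet cannot be told apart.

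Peaks of the 12 lists were merged where they overlapped by 1 bp or more, which gave 4948 regions on chromosomes 1 to 19. Of these, 2074 had peaks of 4 to 11 lists and overlapped a protein-coding gene extended by 5 kb at each end. A region was taken as called mostly in 129 where the number of 129 lists minus the number of B6 lists was 3 or more. This left 261 regions, 12.6% of the 2074, at 342 protein-coding genes. The opposite difference was met by 19 regions, 0.916%. The 261 regions were chosen by the peak calls themselves, so their difference between backgrounds is given as a description without a test, and so are the peak lengths and peak strengths that come from the same lists.

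H3K27me3 is written by Polycomb repressive complex 2 and goes with genes that are kept silent. In early embryos it is found in particular over CpG-rich promoters of developmental regulators, where broad domains can cover a whole gene. Vitamin C is a cofactor of the JmjC histone demethylases and of the TET enzymes, which act on this kind of chromatin. A peak list says where the mark rose above the caller's threshold in a library, not how much of it each cell carried, and in a whole headfold fewer marked cells and less mark per cell cannot be told apart.

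The promoters of 6 members show the range of sequence under these peaks. They are the 300 bases from 250 before to 50 after the RefSeq start (GRCm38.p6, 5′ to 3′ on the gene's own strand), with each CG dinucleotide in capitals, since CpG density is what the mark's usual targets share. LOC115488283 (chr14:6038210-6038509, minus strand) and Gm3500 (chr14:5389025-5389324, minus strand) are shown because they are members with nearly the same promoter. Sema5b (chr16:35541112-35541411, plus strand) is a CpG-rich member with tall peaks in 129, and Isl1 (chr13:116309639-116309938, minus strand) a CpG-rich homeobox promoter with low peaks. Alox12e (chr11:70322481-70322780, minus strand) and Ubd (chr17:37193642-37193941, plus strand) stand for the CpG-poor members.
LOC115488283: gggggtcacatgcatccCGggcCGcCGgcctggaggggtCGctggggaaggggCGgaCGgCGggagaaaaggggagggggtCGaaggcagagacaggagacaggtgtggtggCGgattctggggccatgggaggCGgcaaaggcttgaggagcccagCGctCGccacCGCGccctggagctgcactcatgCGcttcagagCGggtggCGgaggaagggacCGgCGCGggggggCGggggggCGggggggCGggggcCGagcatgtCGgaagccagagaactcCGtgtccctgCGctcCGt
Gm3500: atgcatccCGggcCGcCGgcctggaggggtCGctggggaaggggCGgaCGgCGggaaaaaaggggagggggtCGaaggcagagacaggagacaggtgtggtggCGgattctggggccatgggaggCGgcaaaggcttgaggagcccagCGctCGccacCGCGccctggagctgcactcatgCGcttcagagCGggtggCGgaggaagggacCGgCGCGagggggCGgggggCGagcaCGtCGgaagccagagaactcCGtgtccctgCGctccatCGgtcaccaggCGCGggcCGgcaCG
Sema5b: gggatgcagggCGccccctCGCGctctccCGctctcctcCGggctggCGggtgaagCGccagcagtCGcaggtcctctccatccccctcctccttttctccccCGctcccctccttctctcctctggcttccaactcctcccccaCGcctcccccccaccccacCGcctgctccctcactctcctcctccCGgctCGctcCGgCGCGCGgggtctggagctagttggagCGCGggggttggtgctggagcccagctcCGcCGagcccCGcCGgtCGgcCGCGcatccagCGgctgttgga
Isl1: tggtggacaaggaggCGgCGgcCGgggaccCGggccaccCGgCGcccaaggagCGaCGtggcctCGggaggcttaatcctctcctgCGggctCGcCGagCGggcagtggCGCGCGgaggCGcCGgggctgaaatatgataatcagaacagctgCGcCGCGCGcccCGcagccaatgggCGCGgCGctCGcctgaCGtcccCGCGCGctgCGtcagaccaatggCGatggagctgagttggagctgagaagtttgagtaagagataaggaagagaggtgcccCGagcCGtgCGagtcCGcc
Alox12e: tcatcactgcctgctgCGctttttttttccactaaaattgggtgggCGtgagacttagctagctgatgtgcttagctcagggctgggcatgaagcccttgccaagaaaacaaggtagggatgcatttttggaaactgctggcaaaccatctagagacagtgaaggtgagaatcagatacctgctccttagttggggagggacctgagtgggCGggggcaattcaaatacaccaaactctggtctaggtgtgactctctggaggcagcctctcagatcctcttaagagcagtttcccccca
Ubd: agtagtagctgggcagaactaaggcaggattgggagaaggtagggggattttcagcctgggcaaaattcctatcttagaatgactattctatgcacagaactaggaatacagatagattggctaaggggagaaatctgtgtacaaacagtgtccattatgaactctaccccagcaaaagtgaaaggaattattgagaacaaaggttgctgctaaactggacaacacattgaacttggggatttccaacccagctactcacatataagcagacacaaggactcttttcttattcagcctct

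The printed promoters held 28 CG dinucleotides at LOC115488283, 31 at Gm3500, 27 at Sema5b, 37 at Isl1, 3 at Alox12e and 0 at Ubd. A RefSeq start lay inside 143 of the 261 regions (54.8%), compared with 63.9% of the 1794 genic regions of 4 to 11 lists whose difference was under 3 either way, called balanced regions from here on. These starts gave 195 promoters of 162 genes, with a median of 17 CG dinucleotides. The median over all 20085 promoters of protein-coding genes was 14. At least 1 CG was present in 98.5% of the members' promoters and in 95.6% of all promoters. Of the members' promoters, 51.8% were CpG-rich (a GC content of at least 50% and an observed-to-expected CpG ratio of at least 0.6), against 61.9% in balanced regions, 59.4% in genic regions of all 12 lists and 46.5% of all promoters. The members thus lay between the promoters of the whole genome and those under the balanced regions. A further 75 members held a gene boundary but no listed start, and 27 lay in a gene body. Only in the 5 kb flank lay 16 (6.13%), compared with 1.28% of balanced regions.

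The median member was 8.30 kb wide, close to the 8.48 kb of balanced regions and below the 17.3 kb of the genic regions called in all 12 lists. In the 129 lists, whose peaks were ranked within each list by maximum signal, the median member stood at percentile 31.6, the median balanced region at percentile 45.2 and the median region of all 12 lists at percentile 84.3. Of the 261 members, 102 (39.1%) were below the 25th percentile and 10 (3.83%) at or above the 90th. The corresponding shares of balanced regions were 22.7% and 1.23%. The members in these lists were mostly weak peaks, with a few of the tallest.

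**Figure D1:**
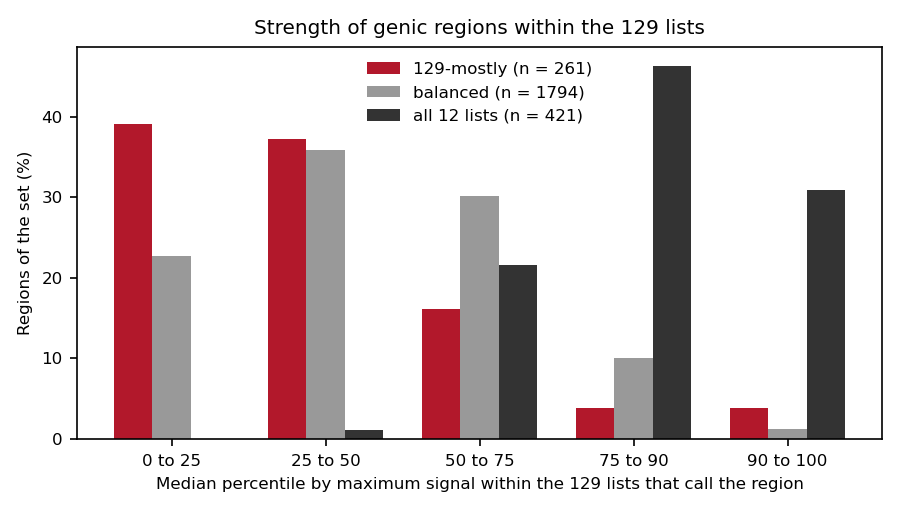
Share of regions (%, vertical axis) by strength class, the median over the calling 129 lists of the peak's rank by maximum signal, in percentiles (horizontal axis), for 129-mostly, balanced and all-12-list genic regions. Of the 129-mostly regions, 39.1% are below the 25th percentile and 3.83% at or above the 90th, with 22.7% and 1.23% for balanced regions.

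The lists differed in number and breadth of peaks, and these values are given beside the members' calls. In 129 with vitamin C, 261, 141 and 256 of the 261 members were called in replicates 1, 2 and 3. In 129 without vitamin C the numbers were 260, 89 and 259. In B6 with vitamin C, replicates 1, 2 and 4 called 56, 49 and 240, and in B6 without vitamin C 3, 0 and 73. B6 with vitamin C replicate 4 therefore called nearly as many members as the broad 129 lists, and 129 without vitamin C replicate 2 called little more than the next B6 list. The covered length was 31.7, 17.8 and 20.5 Mb in 129 with vitamin C and 26.2, 6.97 and 25.9 Mb in 129 without. It was 11.4, 8.69 and 27 Mb in B6 with vitamin C and 3.58, 4.15 and 15.0 Mb in B6 without. The median peak was 1.41 kb wide in B6 with vitamin C replicate 2 and 1.32 kb in B6 without vitamin C replicate 1, compared with 3.93 to 8.45 kb in the other lists, and B6 without vitamin C replicate 2 held 748 peaks, the fewest of any list. These 3 lists called 66.8%, 39.0% and 6.52% of the balanced regions, and 129 with and without vitamin C replicate 2 called 55.2% and 27.5%. The part of list breadth in the members' difference was not tested by itself. When the 3 B6 lists named here were left out and the threshold was kept as a difference of 0.5 in the share of lists, 59 regions were called mostly in 129 and 62 mostly in B6, and 58 of the 261 members stayed. Part of that loss follows from the construction, since a member of 4 129 lists whose single B6 list was with vitamin C replicate 4 then falls under the threshold. Part of the rise in B6 does too, since a region of all 3 B6 lists left and 3 129 lists then passes. With the same threshold, the 7 long lists (4 of 129 and 3 of B6), held to 2395 peaks each, gave 134 regions mostly in 129. They gave 46 mostly in B6.

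**Figure D2:**
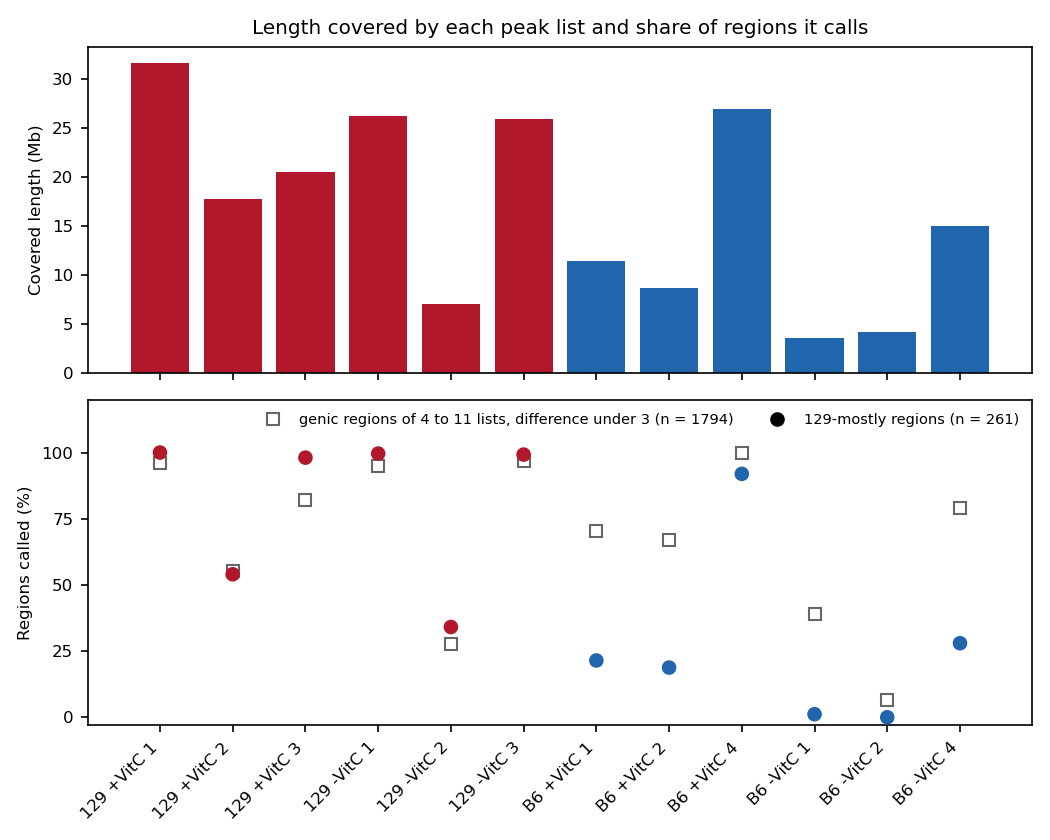
Upper panel: length covered by the peaks of each list (Mb). Lower panel: share (%) of the 261 129-mostly regions (filled circles, red for 129 and blue for B6) and of the 1794 balanced regions (open squares) called in each list, where +VitC and -VitC mark the diets. B6 +VitC 4, which covers 27 Mb, calls 92.0% of the 129-mostly regions, and 129 -VitC 2, which covers 6.97 Mb, calls 34.1%.

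The members' patterns were few. The commonest, held by 91 members, was a peak in replicates 1 and 3 of both 129 groups and in B6 with vitamin C replicate 4 and in no other list. By number of lists, 99 members had 4 of 129 and 1 of B6, 58 had 5 and 2, and 52 had 6 and 3. At the other end, 1 member had 6 and 0, 5 had 6 and 1, and 3 had 5 and 0. The difference in lists was 3 at 209 members, 4 at 43, 5 at 8 and 6 at 1. Across the threshold the regions continued without a gap: 532 further genic regions had a difference of 2. The widest members just inside, at a difference of 3, were those at Atg7 (118 kb), Camkmt (35.8 kb), Isl1 (24.7 kb), Sox2 (21.7 kb) and Sh2b3 (21.4 kb). Just outside, at a difference of 2, were regions at Tfap2b (42.4 kb), Ets1 (28.0 kb), Sim1 (27.8 kb), Nkx6-1 (27.6 kb) and Aym1 (27.5 kb).

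**Figure D3:**
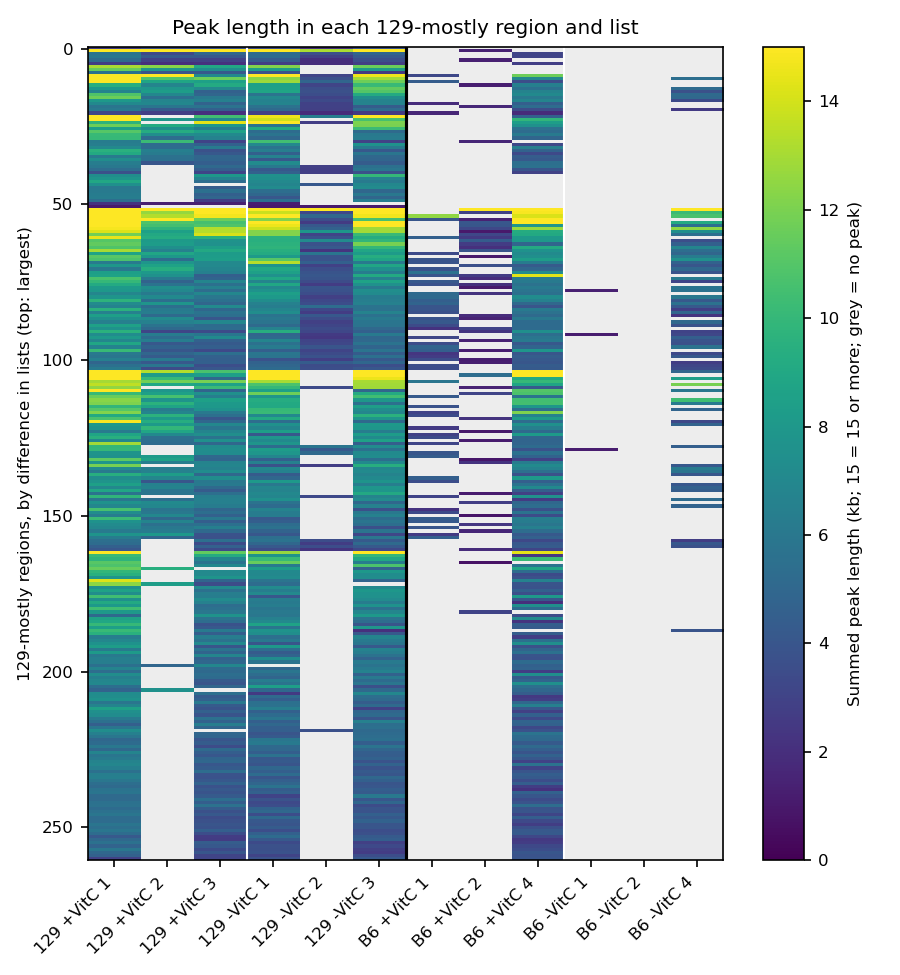
Summed peak length (kb, colour, with 15 standing for 15 or more and grey for no peak) of each of the 261 129-mostly regions (rows, ordered by the difference in lists and then the number of 129 lists) in each of the 12 lists (columns; +VitC and -VitC mark the diets). The column of B6 +VitC 4 is filled for 240 regions, and those of B6 -VitC 1 and B6 -VitC 2 for 3 and 0.

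The longest difference lay between Hrh1, which encodes a histamine receptor, and Atg7, which encodes an enzyme of autophagy. The members there, chr6:114488268-114520638 and chr6:114521599-114639204 (mm10), were 960 bp apart and spanned 151 kb. They began 4970 bp past the end of Hrh1 and stopped 3923 bp before Atg7, so both entered the set through the 5 kb flank. No protein-coding RefSeq gene lay between, and other RefSeq genes were not looked for. In 129 with vitamin C, peaks covered 149, 138 and 117 kb of the interval in replicates 1, 2 and 3. In 129 without vitamin C they covered 140, 51.8 and 114 kb. B6 with vitamin C had 0, 21.8 and 31.0 kb in replicates 1, 2 and 4, and B6 without vitamin C had 0, 0 and 20.6 kb. The lowest 129 list was thus above the highest B6 list, though B6 peaks were mostly shorter in balanced regions too. The tallest peak of the interval stood at or above percentile 99.1 of its own list in all 6 129 lists. It stood at percentiles 82.9, 36.7 and 3.59 in B6 with vitamin C replicates 2 and 4 and B6 without vitamin C replicate 4.

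The start of Hrh1 itself carried an ordinary peak. In the 5 129 lists that called it, its maximum signal stood at percentiles 12.2 to 64.9, and the tallest peak of the interval downstream was 7.89 to 13.2 times as high in the same list. In B6 with vitamin C replicate 4 and B6 without vitamin C replicate 4 the interval reached 0.76 and 0.632 times the height of the Hrh1 start. In 5 of the 6 129 lists a peak of the interval ended at the same base, position 114520638. The Hrh1-side region was called in 6 129 lists with 13.1 to 32.4 kb and in 1 B6 list with 1.46 kb.

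**Figure D4:**
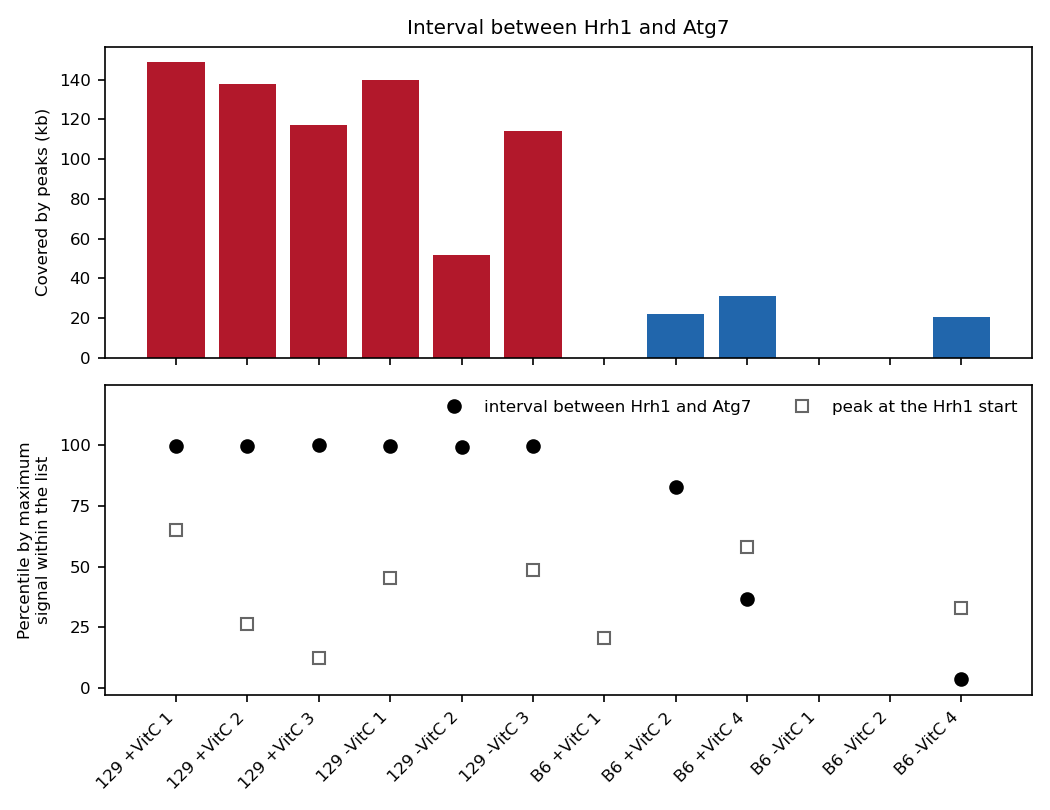
Upper panel: length (kb) of the interval between Hrh1 and Atg7 covered by peaks in each list (red 129, blue B6; +VitC and -VitC mark the diets). Lower panel: percentile, by maximum signal within its own list, of the tallest peak in the interval (filled circles) and of the peak at the Hrh1 start (open squares), where no symbol means no peak. The 129 lists cover 51.8 to 149 kb and the B6 lists 0 to 31.0 kb.

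The member with the largest difference in lists was at LOC115488283 (chr14:6036775-6040656), called in 6 129 lists and 0 B6 lists. Its peaks measured 2.71, 3.58 and 3.77 kb in 129 with vitamin C and 3.56, 2.08 and 3.82 kb in 129 without, at percentiles 90.4 to 99.0 of their lists. It was 1 of 4 members between 4.1 and 6.1 Mb of chromosome 14, with Gm8108 and Gm32966 (chr14:4106547-4112187), Gm3500 (chr14:5387326-5393082) and Gm3373 (chr14:5739767-5745811), all of them predicted genes of this assembly. The region at Gm8108 was called in 5 129 lists and 0 B6 lists, at percentiles 98.3 to 99.3. Those at Gm3500 and Gm3373 were called in 6 129 lists and in B6 with vitamin C replicate 4. Gm3500 was at a median of percentile 86.2 in 129 and percentile 1.79 in that B6 list, and Gm3373 at percentiles 89.5 and 3.58. The promoters of Gm3500 and LOC115488283 printed above matched at 272 of 325 aligned positions, gaps included (83.7%). Chromosome 14 held 14 members, 21.5% of its genic regions of 4 to 11 lists, the largest share of any autosome, with 12.6% over all.

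Near-identical sequence recurred at other members. A region at Gm13271, Gm13286 and Gm13283 (chr4:88753737-88764207), genes of the interferon zeta family, was called in 5 129 lists, with peaks of 6.32, 10.2 and 3.00 kb with vitamin C and 10.5, 0 and 2.96 kb without. In B6 it was called in 1 list, with vitamin C replicate 2, at percentile 10.2, where the 129 peaks stood at percentiles 89.4 to 98.9. The promoter of Gm13283 shared 201 of its 276 runs of 25 bases with each of Gm13272, Gm13285 and Gm13287. In all, 5 members (1.92%) held a promoter that shared at least 50% of its runs with another gene's, compared with 0.39% of balanced regions. Of all promoters of protein-coding genes, 4.21% have such a partner. That is a share of promoters and not of regions, and only 143 members held a start, so it is not on the same scale. Reads from such copies cannot be told apart with certainty, and how reads with several matches were placed is not given in the sources used here, so the values at these genes are uncertain.

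Among the other tall members, Sema5b and H60b each stood at a single gene. Sema5b, which encodes a semaphorin that guides axons, had a region over its start (chr16:35531330-35548197). Its peaks measured 16.9, 8.82 and 8.53 kb in 129 with vitamin C and 12.8, 4.88 and 11.7 kb in 129 without, against 4.36, 0 and 3.57 kb in B6 with vitamin C and 0 in all 3 B6 lists without. All 6 129 peaks were longer than the longest of B6, and they stood at percentiles 94.3 to 98.9, against percentile 28.9 at most in B6. Peaks were mostly shorter in B6 in balanced regions too, with list medians of 3.915 to 7.98 kb in 129 and 1.46 to 5.57 kb in B6. How many regions separate the backgrounds by length was not counted. H60b (chr10:22272546-22275436), which encodes a ligand of the NKG2D receptor of natural killer cells, had 1.96 to 2.80 kb in the 6 129 lists. A peak of 2.78 kb in B6 with vitamin C replicate 4 lay within that range, at percentile 33.0, and the 129 peaks had a median of percentile 92.9. A region beside Gm21992, Rbm14 and Ccs (chr19:4816321-4821618) was called in 6 129 lists at percentiles 92.6 to 99.2, and in B6 with vitamin C replicate 2 at percentile 31.0. At Rrs1 and Adhfe1 (chr1:9545201-9547369) 4 129 lists and 0 B6 lists had a peak, at percentiles 79.7 to 98.7.

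Tmem125 (chr4:118546238-118549493) was tall in both backgrounds. Its 6 129 peaks were above percentile 99.7, and the tallest of its 2 B6 peaks stood at percentile 99.8. Of the 10, 7 were below the 50th percentile or without a peak in every B6 list, and 6 held no RefSeq start. The B6 list that called most members, with vitamin C replicate 4, covered as much as the broad 129 lists but with more peaks, 4257 on the autosomes against 1375 to 3120, so ranks in it and in 129 show no change by themselves and are set beside those of balanced regions. Of the 240 members it called, 5 (2.08%) stood there more than 50 percentile points below their 129 median, namely Gm3373, Gm3500, Sema5b, Atg7 and H60b. Of 1789 balanced regions in that list, 1 (0.0559%) did. The median member stood 12.4 points higher in that B6 list than in 129, and the median balanced region 14.8 points higher.

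**Figure D5:**
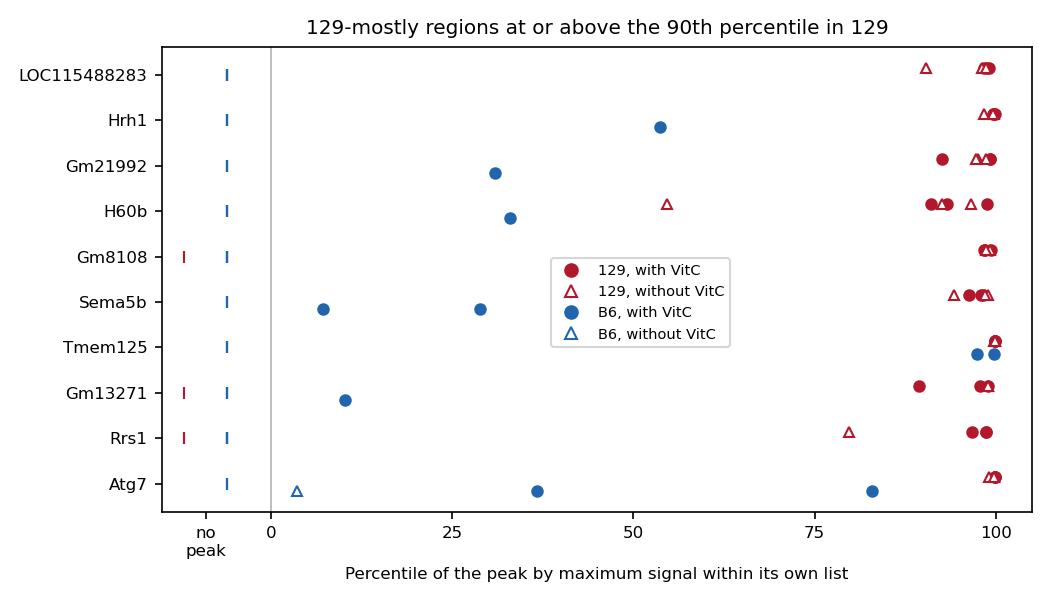
Percentile of the peak by maximum signal within its own list (horizontal axis) for the 10 129-mostly regions at or above the 90th percentile in 129, named by their first gene (rows). Filled circles are lists with and open triangles lists without vitamin C, red for 129 and blue for B6, and bars at the left mark that at least 1 list of that background had no peak. At Tmem125 alone a B6 peak reaches percentile 99.8.

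Of the members not called even in B6 with vitamin C replicate 4, 21 in all, several were ordinary in strength. F5, which encodes coagulation factor V, had a region (chr1:164220485-164232082) with 11.6, 7.88 and 7.35 kb in 129 with vitamin C and 8.34, 0 and 8.18 kb without, and 0 in all 6 B6 lists. A member of the H2-T part of the major histocompatibility complex, at Gm11127 and Gm6034 (chr17:36056127-36069230), had 9.00 to 13.1 kb in 5 129 lists and 0 in all 6 B6 lists, at a median of percentile 29.0. Its neighbours at H2-T22 and at H2-T-ps were members too, and the 3 spanned 76.2 kb. The region at H2-T-ps was called in 6 129 lists and in 2 B6 lists with vitamin C, at a median of percentile 89.7 in 129. The promoter of Gm11127 shared 164 of its 276 runs of 25 bases with that of Gm7030. Cdk6, a cell cycle kinase, Ifngr1, which encodes a chain of the interferon gamma receptor, and Lifr, the receptor of leukaemia inhibitory factor, were each called in 4 129 lists and 0 B6 lists.

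By gene family, the axon guidance ligands and receptors had 7 of 72 genes at members: Epha2, Epha5, Nrp1, Ntng2, Robo1, Sema5b and Slit3. That was 22.6% of the family's genes at genic regions of 4 to 11 lists, with 13.0% over all protein-coding genes. Epha2, an ephrin receptor, had the widest of these regions, 24.3 kb over its start (chr4:141281241-141305582). Its peaks measured 24.3, 21.0 and 7.11 kb in 129 with vitamin C, 16.2, 3.09 and 14.6 kb in 129 without, 3.22, 0 and 11.7 kb in B6 with and 0 in the 3 B6 lists without. The groups overlapped, since the B6 peak of 11.7 kb was longer than 2 of the 129 peaks. Nrp1, a receptor of semaphorins and VEGF, had the 4 and 1 pattern with a median of percentile 6.52 in 129, and Robo1, the receptor of Slit proteins, stood at percentile 69.9. Slit3, a secreted Slit ligand, stood at percentile 2.57, and its single B6 peak was in vitamin C replicate 2.

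Homeobox genes were mostly marked in every list. Of 172 homeobox and paired box genes, 118 lay at regions of all 12 lists and 3 at members, 6.38% of those at 4 to 11 lists. These were Irx3, Isl1, a factor of motor neurons and the heart, and Meis2. At Isl1 (chr13:116292066-116316728) peaks measured 24.0, 8.21 and 8.49 kb in 129 with vitamin C and 24.7, 0 and 19 kb without, with 5.38 and 15.5 kb in B6 with vitamin C replicates 2 and 4. Of 302 other transcription factors 12 were at members (10.6%), among them Sox2, Runx1, Hes7, Etv4, Foxb1 and Scrt2. Runx1, needed for blood formation, was at a median of percentile 62.1 in 129 and at percentile 95.8 in B6 with vitamin C replicate 4. Etv4, a target of FGF signalling, lay at 2 members that were 254 bp apart.

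Sox2, a marker of the neural plate, lay beside a member (chr3:34652693-34674344) that only reached its flank. Peaks there measured 21.7, 7.89 and 4.84 kb in 129 with vitamin C and 8.54, 0 and 4.95 kb without, and 11 and 5.96 kb in replicate 4 of B6 with and without vitamin C. They were low, at a median of percentile 14.4 in 129. Of 12 anterior neural plate markers, 4 were marked within 1 kb of a gene boundary in 10 or more lists, Sox2 in 2, and Hesx1 and Cdh2 in 0. The mark was also present in 10 or more lists at 5 of 6 foregut endoderm markers, 6 of 9 of heart and endothelium, and 0 of 6 of blood. The same held at 2 of 10 surface ectoderm markers, 5 of 11 of head mesenchyme and neural crest, and 4 of 8 of paraxial and posterior mesoderm. Since the mark goes with silent genes, these counts do not measure which cells a headfold held. Cldn6, a foregut marker, was the other marker at a member.

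Signalling genes at members were 8 of 219, 9.30% of those at regions of 4 to 11 lists. They included Ptch1, the receptor of hedgehog ligands, Dkk1, an inhibitor of WNT, Fst and Grem1, which bind activin and BMP ligands, Kitl, the KIT ligand, and Fgf21. At Ptch1 (chr13:63567358-63577560) peaks measured 10.1, 7.39 and 7.21 kb in 129 with vitamin C and 5.78, 0 and 6.05 kb without, and 6.10 kb in B6 with vitamin C replicate 4. Grem1 was called in 6 129 lists at 5.37 to 7.16 kb and in 3 B6 lists at 3.93 to 4.17 kb. Dkk1, Fst, Kitl and Fgf21 all had 4 129 lists and 1 B6 list, B6 with vitamin C replicate 4.

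Of 500 immune and inflammatory genes, 15 were at members, 21.4% of those at 4 to 11 lists. They included Tnf, Irf1, Il10ra, Il27ra and the class II genes H2-DMa and H2-DMb2. The region over Tnf with its neighbours Lta and Ltb measured 13.0, 11.8 and 11.9 kb in 129 with vitamin C and 13.1, 0 and 13.0 kb without, and 5.85 and 10.1 kb in B6 with vitamin C replicates 1 and 4. Muscle and contractile genes had 6 (22.2%), with the troponin genes Tnni3 and Tnnt1 at a single member. Ion channels had 11 (12.0%), among them Cacna1a and Ryr1. Another region at Cacna1a (chr8:84595113-84606313) went the other way, called in 1 129 list and 4 B6 lists. Neurotransmitter receptors had 6 (10.0%), Gabrb2, Grm5, Hcrtr2, Hrh1, Htr1d and Npy1r. Of 42 Polycomb and trithorax genes 6 were at regions of 4 to 11 lists and 0 at members. Of 53 genes for vitamin C transport or vitamin C dependent enzymes 0 were at genic regions of 4 to 11 lists or of all 12. Of all 20665 protein-coding genes, 2640 were at regions of 4 to 11 lists and 727 at regions of all 12, with 342 (1.65%) at members. The families differ in how many neighbouring genes share a region, and no family was tested.

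Some members lay near each other. Within 50 kb of another member were 29 of the 261 (11.1%), in 14 groups. Of the 19 regions called mostly in B6, 2 (10.5%) lay within 50 kb of another of their set. The share was larger in the balanced and all-12-list sets, and the sets differ in size. Of the 1794 balanced regions, 363 (20.2%) lay within 50 kb of another balanced region. Of the 421 genic regions of all 12 lists, 63 (15.0%) lay that near another of their set. Besides those named, the groups included Arhgef19 with Epha2, and Slc47a1 with Slc47a2, transporters of organic cations. Some members are therefore neighbouring parts of a longer marked stretch and are not independent of each other. Within 50 kb of a region called in all 12 lists were 17 members (6.51%), and 6.80% of the balanced regions.

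Diet was not part of the rule, but it was compared with the same lists. Of the 261 members, 129 lists with vitamin C called 84.0% ± 26.0 (SD, n = 3) and 129 lists without 77.7% ± 37.7 (SD, n = 3). B6 lists with vitamin C called 44.1% ± 41.5 (SD, n = 3) and B6 lists without 9.71% ± 15.8 (SD, n = 3). The difference in B6, without minus with vitamin C, was -34.4 percentage points, within a spread of 18.8% to 92.0% among the B6 lists with vitamin C alone. It was -10.4 points without B6 with vitamin C replicate 4. In balanced regions the B6 lists with vitamin C called 79.0% ± 18.0 (SD, n = 3) and those without 41.5% ± 36.2 (SD, n = 3). More B6 lists with than without vitamin C called 213 members, 45 were equal, and 3 had more without. The same direction held at 1673 of the 2074 genic regions of 4 to 11 lists, and at 2311 of all 3417 regions of 2 or more lists. In 129, 68 members had more lists with vitamin C, 18 more without, and 175 were equal. The numbers were 662, 344 and 1068 of the 2074 genic regions, and 836, 663 and 1918 of all 3417 regions.

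Region by region, diet was tested by exact permutation of the labels within background (400 relabellings, two-sided). Of 3417 regions, 1 (0.0293%) had an unadjusted p under 0.05. The count of 0 among the 261 members was set by the rule, since none of the 279 call patterns it admits can give less than 0.1 in this exact permutation test, so called or not says nothing about diet at the members. The most uneven members were 9 regions that all 3 B6 lists with and no B6 list without vitamin C called. These were 3.45% of members. In B6, 62 of the 2074 genic regions of 4 to 11 lists (2.99%) and 85 of 3417 regions (2.49%) had that pattern. In 129 that pattern, held by 4 of 3417 regions (0.117%), could not occur among members, which have 4 or more 129 lists. They lay at Tbxa2r and Gipc3, Eps8l1 and Rdh13, Fam107a, Ebf4, Cdc20b, Tent5c, Baiap3, Gng7, and Guca1b and Guca1a.

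When the share of a region's length covered by peaks took the place of called or not, 13 members had an unadjusted exact permutation p under 0.05, and 67 of all 3417 regions (1.96%). All 67 were covered more with vitamin C, and after Benjamini-Hochberg adjustment 0 passed, with a smallest adjusted p of 0.793 among members. The 13 became 30 without B6 with vitamin C replicate 2. It became 6 to 8 without replicate 1 or 2 of 129 with vitamin C, replicate 2 of 129 without, or any B6 list without vitamin C. The smallest unadjusted p, 0.005, was at Guca1b and Guca1a, which encode activators of photoreceptor guanylate cyclase (chr17:47391777-47398296). Peaks there measured 6.52, 6.11 and 4.52 kb in 129 with vitamin C and 3.78, 2.79 and 4.20 kb in 129 without. In B6 they measured 3.52, 1.27 and 4.22 kb with vitamin C and 0 in all 3 lists without. The diets did not overlap within either background. The other 12 members, which included Lrmda, Tbxa2r, Gng7, Sh2b2, Bcl11b, Gja4, Irf1 and Il10ra, had p between 0.01 and 0.04 in the same exact permutation test. The B6 lists with vitamin C also called more of all 3417 regions, 69.9% ± 20.0 (SD, n = 3) against 39.2% ± 22.2 (SD, n = 3) without, and the part of that in these values was not tested.

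Sex was tested in the same way within background and diet (81 relabellings). Of all 3417 regions 0 (0%) had an unadjusted p under 0.05. No call pattern that the rule admits can give less than 0.0741 in this exact permutation test, so the count of 0 among members was again set by the rule. The female lists of 129 called 34.1% to 100% of members and the male lists 98.1% to 99.2%, and in B6 the female lists called 0% to 92.0% and the male lists 1.15% to 21.5%.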

How the data were processed

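The data were SEACR peak lists of 12 H3K27me3 CUT&Tag libraries. Per the submitters' processing notes, the tools were cutadapt, Bowtie2, Picard and SEACR and the build was mm10. Versions, settings and any use of IgG were not given in the sources used here. The deposited signal values (total and maximum per peak) carry no visible scaling to a common depth, so they ranked or filtered peaks within a list only. Reads per library are not in the lists: depth, and the precision it gives, is unknown. Of 31753 peaks, 30522 were autosomal. Genes and promoters came from RefSeq GRCm38.p6 tables. The gene table has no strand, and exon positions were not used.

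A region was called in a library with at least 1 bp of peak. Diet and sex were tested by exact permutation over samples on all 3417 autosomal regions of at least 2 lists with Benjamini-Hochberg adjustment and a threshold of 0.05. The embryo was the replicate, and p-values treat the 3 littermates of B6 with vitamin C as separate. The region test was also tested on simulated data. Members were ranked by difference in lists, number of 129 lists and mean peak length in 129. Named were the first 30, the 10 widest, members that lead the diet tests, up to 6 genes per family (7 for axon guidance), and the tall, threshold and clustered members, which were picked after values were seen, as were Cdk6, Ifngr1 and Lifr. Members, families and marker lists were chosen with earlier results of these data known, and the patterns of 2 families were corrected once their matches were seen. Alternatives changed the peak filter, list length, merging, overlap, gene span, threshold and the libraries used. Python 3.11.15, NumPy 2.4.6, pandas 2.3.3 and SciPy 1.17.1 were used.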

Additional observations from a re-analysis of the deposited data

How the results depend on the processing

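The number of members depended on the lists and on the peaks kept. It was 129 with every list held to its 748 peaks of largest total signal (15 of the 261 members were among them), 115 with peaks at or above the list's median maximum signal (30), 1255 with at least 50% of a region covered (214), 793 with a difference of at least 2 and 52 with at least 4. Alternatives chosen after seeing the data gave 59 without the 3 B6 lists of short or few peaks (58) and 134 in the 7 long lists held to 2395 peaks each (71). The mirror count of 19 became 12 with peaks of at least 1 kb, 8 with at least 50% covered, 45 and 10 with a difference of 2 and 4, and 62 and 46 under the added alternatives. Leaving out each library, with a threshold of 0.5 in the share of lists, gave 52 to 349 members and 6 to 23 mirror regions. It gave 236, 349 and 258 without 129 with vitamin C replicate 2, 129 without vitamin C replicate 2 and B6 with vitamin C replicate 4, and 52 to 118 without any of the other 9 libraries, the fewest without B6 without vitamin C replicate 2 (52) and replicate 1 (55). Where the library left out is a B6 list that did not call the region, every region with a difference of 3 falls under that threshold by construction. Where it is a 129 list that called the region, those of 4 lists of 129 and 1 of B6, or 5 and 2, fall. B6 without vitamin C replicate 2 called 0 members, so the 52 without it was fixed by the rule. It equals the count with a difference of at least 4. Joining peaks less than 5 kb apart, peaks of at least 1 kb and no gene extension gave 250 to 280 members. There were 4 alternatives on strength and list length (equal lists, median signal, and both added ones). Hrh1 was a member in all 4 and 9 others in 3, namely Gm8108, Gm21992, Gm3500, Gm3373, LOC115488283, H60b, Sema5b, Gm13271 and F5, while 149 members were kept in 0. Without the 3 B6 lists, all of these but Sema5b stay by construction, given their calls, so that setting shows no stability for them. Sema5b was not kept there. The 7 long lists also leave out replicate 2 of both 129 groups, the 129 lists that called the fewest members.

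The B6 diet difference in the share of members called, without minus with vitamin C, was -34.4 points and -1.79 with equal lists, and ranged from -47.0 to -10.4 when each library was left out. That of 129 (-6.39) ranged from -21.4 to 15.4 in the same way. The 0 members past p 0.05 for diet and for sex by called or not is set by the rule, and its staying at 0 shows no stability. By share covered it was 13 for diet. Without each library in turn (chosen after seeing the data) that number was 6, 8 and 15 in 129 with vitamin C replicates 1, 2 and 3, 16, 7 and 14 in 129 without, 18, 30 and 10 in B6 with replicates 1, 2 and 4, and 6, 6 and 7 in B6 without, with 0 after adjustment each time. Depth is unknown and limits every absence of a peak. No paired analysis was possible because the labels number no replicates across groups, and numbers only name samples.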

Other observations

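The 19 genic regions called mostly in B6 had a median width of 5.75 kb and a median percentile of 38.5 by maximum signal, compared with 8.30 kb and 32.1 for the 129-mostly regions. Chd9, which encodes a chromodomain remodeller, had a region (chr8:90884999-90890746) called in 5 B6 lists and 0 129 lists, with 4.28, 1.33 and 5.75 kb in B6 with vitamin C and 1.15, 0 and 4.00 kb without. Of the 19, 5 named here after their values were seen were short and tall: at Cdk8 (0.388 kb), Lars2 (0.579 kb), Filip1l (0.566 kb), Camk1d (0.337 kb) and Mogat1 (1.02 kb) the median percentile by maximum signal over the lists that called them was 95.6 to 99.0. Camk1d also lay at a 129-mostly region. The region at Gas8 (chr8:123536023-123626858, 90.8 kb) was called in 6 B6 lists at 86.7 to 90.2 kb and in the 3 129 lists without vitamin C at 76.4 to 90.8 kb, with 0 in the 3 129 lists with vitamin C. The whole of Gas8's difference between backgrounds thus lay in 129 with vitamin C. In 129, 1 of 3417 regions (0.0293%) was called in 0 lists with and all 3 without vitamin C. By called or not, 0 of the 3417 regions passed the diet test after adjustment.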
